A study of Mus musculus with 24 samples.

Results

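The genes described here are the extracellular and membrane parts of Wnt signalling: the Wnt ligands, their Frizzled, Ror and Lrp5/Lrp6 receptors, the R-spondins, and the secreted inhibitors of the Sfrp, Dkk and Wif1 families. They were chosen by gene name on a mouse Agilent expression array, with 1 probe kept per gene, the probe with the highest mean. The names matched 46 of the 34836 genes named on the array, through 55 of its 55681 probes, and 36 of the 46 genes were well above background on every array of at least 1 group and are reported. The arrays hold RNA of male NZO/HiBomDife mice, an obese and diabetes-prone strain, and of male C57BL/6 (B6) mice, a lean strain, both fed a diet with 45% fat and sampled at 6 weeks of age. Each strain gave gonadal white adipose tissue (gWAT), brown fat (BAT) and skeletal muscle, with 4 arrays in each of the 6 groups, and only RNA with an integrity number above 8 was used. B6 muscle array 011 is left out of what follows, which leaves 23 arrays. The comparison asks how the strains differ in each tissue, and the tissues in each strain.

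A Wnt ligand is a lipid-modified secreted protein that binds a Frizzled receptor together with a co-receptor. Binding with Lrp5 or Lrp6 leads to accumulation of beta-catenin and transcription through TCF/LEF factors, while Ror2 and Ryk take part in branches that do not use beta-catenin. R-spondins keep Frizzled receptors at the cell surface, Sfrp proteins and Wif1 bind the ligand, and Dkk proteins bind Lrp5 and Lrp6. In fat tissue the beta-catenin branch is known as a brake on adipocyte differentiation, and in muscle it is known for its part in development and in the muscle stem cell.

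Promoter sequences are shown for 3 genes that carry the strain differences below: the inhibitors Wif1 and Sfrp5, higher in NZO gWAT, and the ligand Wnt5b, whose strain difference had opposite signs in gWAT and in the other tissues. Each runs 5′ to 3′ on the strand of its gene over the 250 bases before the start, from RefSeq on GRCm38.p6, the reference mouse genome and not that of NZO. Capitals mark a match to either of the 2 motifs searched on both strands, the TCF/LEF core CTTTGA (reverse complement TCAAAG) and the TATA box TATAAA (reverse complement TTTATA). The Wif1 promoter at chr10:121033754-121034003, plus strand, held a TATA box match on the opposite strand, from -232 to -227. Sfrp5, at chr19:42202253-42202502, minus strand, held neither motif. For Wnt5b the promoter at chr6:119449387-119449636, minus strand, held a TCF/LEF core match from -71 to -66, and it is the one of its 3 listed promoters that did.
Wif1: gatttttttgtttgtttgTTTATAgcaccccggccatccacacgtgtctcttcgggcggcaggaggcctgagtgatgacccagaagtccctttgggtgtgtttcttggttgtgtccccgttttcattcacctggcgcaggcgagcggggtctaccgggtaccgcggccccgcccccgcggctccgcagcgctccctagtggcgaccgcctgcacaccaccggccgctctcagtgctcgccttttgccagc
Sfrp5: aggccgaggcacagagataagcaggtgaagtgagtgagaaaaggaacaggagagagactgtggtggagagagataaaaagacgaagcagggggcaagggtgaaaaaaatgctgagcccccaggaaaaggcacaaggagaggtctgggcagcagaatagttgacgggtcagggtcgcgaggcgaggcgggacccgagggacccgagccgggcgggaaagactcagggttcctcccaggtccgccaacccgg
Wnt5b: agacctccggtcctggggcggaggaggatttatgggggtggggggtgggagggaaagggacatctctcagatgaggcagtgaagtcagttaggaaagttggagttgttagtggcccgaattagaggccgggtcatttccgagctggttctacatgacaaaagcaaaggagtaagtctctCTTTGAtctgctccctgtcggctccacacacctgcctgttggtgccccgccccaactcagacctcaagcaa

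A promoter was listed for 30 of the 46 genes, 22 of them among the reported ones, with 33 promoters in all. The TCF/LEF core was in 5 of the 33, those of Ror1, Fzd1, Wnt5b, Wnt11 and Dkk1, against 13.8% of the 32851 promoters in the table. The TATA box was in 5 of the 33, those of Dkk2, Fzd1, Wnt11, Wif1 and Dkk1, against 12.4% of all promoters. A match is a description of the letters and not a bound site.

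Levels are the log2 processed signal minus the array's own 75th percentile, so that 0 is the signal at that percentile. Between 51.9% and 59.3% of probes were well above background on an array, and the 75th percentile lay between 134 and 360 intensity units. The defining markers of each tissue matched its label: summed over 8 mature adipocyte markers the level was 10.78 to 11.38 on the fat arrays, over 7 brown adipocyte markers 11.63 to 11.99 in BAT, and over 8 muscle fibre markers 12.95 to 13.32 in muscle. The brown adipocyte list is not particular to BAT, since it summed to 8.65 to 9.25 in muscle, against 3.34 to 6.94 in gWAT. The left-out B6 muscle array had a mature adipocyte level of 10.14, against 6.83 to 7.09 on the other B6 muscle arrays. The labels do not say whether arrays of a group came from separate mice, so p-values measure the spread between these samples. In whole tissue, fewer cells of a type and less RNA per cell cannot be told apart.

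The secreted inhibitors Wif1, Sfrp5, Sfrp4 and Sfrp2 were higher in NZO gWAT, while Wnt5b and Lrp6 differed between the strains in all 3 tissues. In gWAT, 12 of the 29 members tested passed the test (limma, Benjamini-Hochberg adjusted p under 0.05 over all genes), 6 higher in NZO and 6 lower, a share of 41.4% where 31.6% of all genes tested passed, 15.9% higher and 15.7% lower. In BAT, 10 of 28 passed, 5 in each direction, a share of 35.7% against 15.6% of all genes, 7.58% higher and 8.07% lower. In muscle, 6 of 34 passed, 4 higher and 2 lower in NZO, a share of 17.6% against 10.7%, 4.66% higher and 6.01% lower. The median absolute difference of the members was 0.53 in gWAT, 0.49 in BAT and 0.48 in muscle, against 0.36, 0.22 and 0.25 for all genes tested. The median signed difference of the members was -0.08, -0.02 and 0.15 against 0.00, 0.00 and -0.03. Within slides that held both strains, 1 or 2 NZO arrays against 1 B6 array, the difference in Sfrp5 in gWAT was 3.26 on slide 4 and 2.67 on slide 6. That in Wnt5b was -0.79 and -1.35 on these slides in gWAT, 1.63 on slide 3 in BAT and 1.96 on slide 4 in muscle. These are the same arrays as in the tests, so for members whose groups did not overlap the sign within a slide was fixed.

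By role, 4 of the 7 inhibitors tested in gWAT were higher in NZO and 0 lower by limma. Wif1, among the 4, passed the background filter in gWAT through its NZO arrays alone. Of all genes tested there, 15.9% were higher and 15.7% lower. The inhibitor Sfrp1 was lower on every NZO gWAT array without being called (-1.07, limma adjusted p = 0.0519). It passed in one fit over 23 arrays (limma adjusted p = 0.0102). The 9 Frizzled receptors gave 2 higher and 2 lower there, and the 8 ligands 0 higher and 2 lower. In BAT, 2 of 9 ligands were higher and 1 lower, and 1 of 9 Frizzled receptors was higher and 2 lower. In muscle each role had at most 1 member called in either direction. The balance in gWAT moved with the scaling: centring each array on its median placed the median of all genes at 0.28 and gave 8 members higher and 2 lower, the lower ones being Rspo3 and Wnt5b. In muscle, quantile normalization gave 4 higher and 0 lower and median centring 4 higher and 1 lower.

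**Figure D1:**
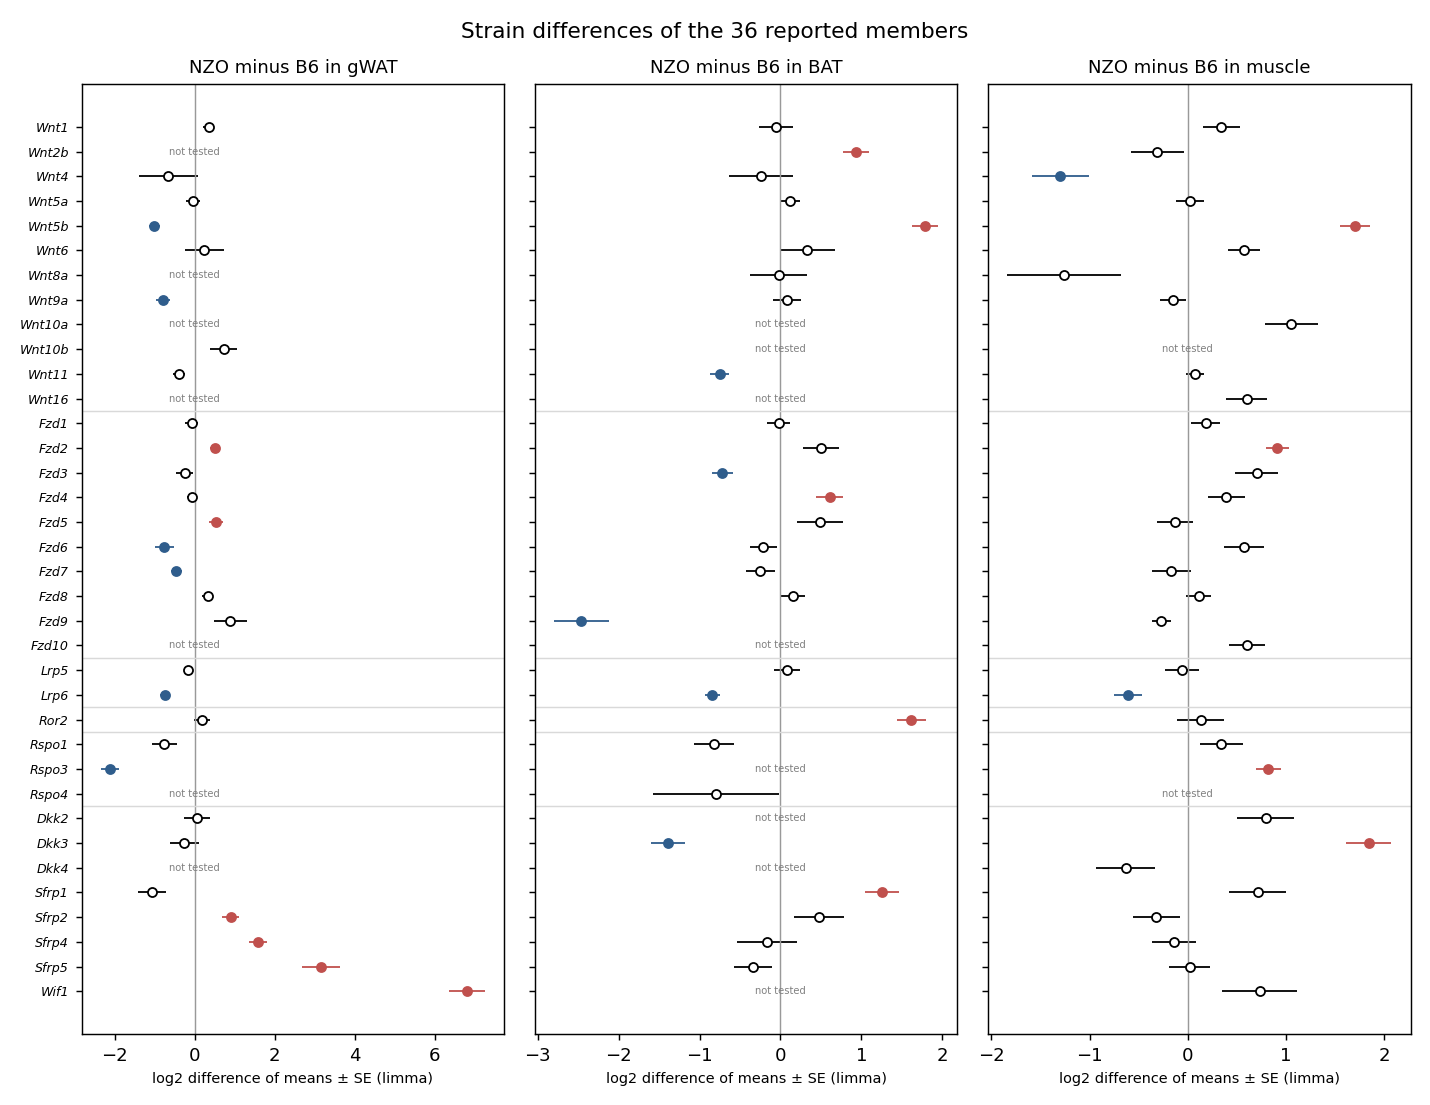
Log2 difference, NZO minus B6, of the 36 reported genes in gWAT, BAT and muscle, with standard errors; filled red points passed the test as higher in NZO, filled blue as lower, open points did not pass, and genes below the background filter are marked as not tested. The horizontal scales differ between the panels. Wif1 and Sfrp5 lie farthest to the right in gWAT, and Wnt5b lies left of 0 in gWAT and right of 0 in BAT and muscle. The points of Wif1 in gWAT and Fzd9 in BAT are fitted against signals not well above background.

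Wnt5b, a ligand best known from the branches that do not use beta-catenin, was lower in NZO gWAT and higher in NZO BAT and muscle. Its levels in gWAT were -0.73, -0.72, -0.89 and -0.48 on the NZO arrays and 0.12, 0.24, 0.54 and 0.31 on the B6 arrays. Every NZO array lay below every B6 array, with a log2 difference of -1.01 (SE 0.13, limma adjusted p = 0.000795). In BAT the NZO arrays read 0.76, 0.11, 0.26 and 0.19 and the B6 arrays -1.60, -1.24, -1.44 and -1.56. Here every NZO array lay above every B6 array, by 3.46-fold (log2 difference 1.79, SE 0.16, limma adjusted p = 0.000205). In muscle the NZO arrays read 1.54, 1.53, 1.19 and 1.60 and the 3 B6 arrays 0.02, -0.37 and -0.36. The groups were again apart, by 3.26-fold (log2 difference 1.70, SE 0.15, limma adjusted p = 0.000768). The strain difference itself differed between tissues: it was 2.80 larger in BAT than in gWAT (SE 0.21, limma adjusted p = 3.29e-08) and 2.71 larger in muscle than in gWAT (SE 0.22, limma adjusted p = 1.00e-07). The probe lies at chr6:119382550-119382609 in the mm9 build given by the array's files.

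Wnt9a, a ligand with known roles in joint and blood development, read -1.10, -1.81, -1.42 and -1.18 in NZO gWAT and -0.52, -0.47, -0.53 and -0.83 in B6 gWAT. The NZO arrays were all lower, with a log2 difference of -0.79 (SE 0.17, limma adjusted p = 0.0101), which centring on the median reduced to -0.50 (adjusted p = 0.146). In BAT its strain difference was 0.08 (limma adjusted p = 0.806), and the difference between the 2 tissues was 0.87 (SE 0.23, adjusted p = 0.0120, or 0.217 with median centring). Wnt2b, a ligand of the beta-catenin branch, read -0.93, -1.24, -1.47 and -0.98 in NZO BAT and -2.25, -2.29, -1.93 and -1.88 in B6 BAT. The groups did not overlap and NZO was higher by 1.91-fold (log2 difference 0.93, SE 0.16, limma adjusted p = 0.00575). That call was lost with slide as a fixed block (adjusted p = 0.179) and in one fit over 23 arrays (adjusted p = 0.101). Wnt11, a ligand of the branches without beta-catenin, read -1.34, -1.56, -1.25 and -1.67 in NZO BAT and -0.63, -0.86, -0.63 and -0.70 in B6 BAT. NZO was lower on every array, with a log2 difference of -0.75 (SE 0.12, limma adjusted p = 0.00370).

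Wnt4, a ligand known from kidney and ovary development, read 1.18, 1.97, 1.07 and 1.28 in NZO muscle and 2.93, 2.15 and 2.96 in B6 muscle. NZO was lower on every array, by 2.47-fold (log2 difference -1.30, SE 0.29, limma adjusted p = 0.0314). Its second probe gave -1.02 (limma adjusted p = 0.0456). The call was lost without NZO array 009, 003 or 007 (adjusted p of 0.0656, 0.0805 and 0.0792) and without B6 array 010 or 009 (0.126 and 0.118). It was also lost with slide as a fixed block (adjusted p = 0.358), and with B6 array 011 kept the difference was -1.11 (adjusted p = 0.0795). Wnt5a, the closest relative of Wnt5b, differed by -0.04, 0.12 and 0.02 in gWAT, BAT and muscle, with limma adjusted p from 0.585 to 0.948. Wnt10a, Wnt10b, Wnt1, Wnt6, Wnt8a and Wnt16 gave no call in a strain comparison. Among them Wnt10a was nearest, at 1.05 in muscle (limma adjusted p = 0.0520), and it passed without B6 array 009 (1.41, adjusted p = 0.00371) and with array 011 kept (1.26, adjusted p = 0.0480). In gWAT, Wnt1 passed with median centring (0.64, limma adjusted p = 0.0301) and with slide as a fixed block (0.36, 0.0252). Wnt10b passed in gWAT without B6 array 009 (1.02, limma adjusted p = 0.0201). The main probe of Wnt1 was well above background on all 23 arrays while its other probe was so on 0 of 23, so its level is uncertain.

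**Figure D2:**
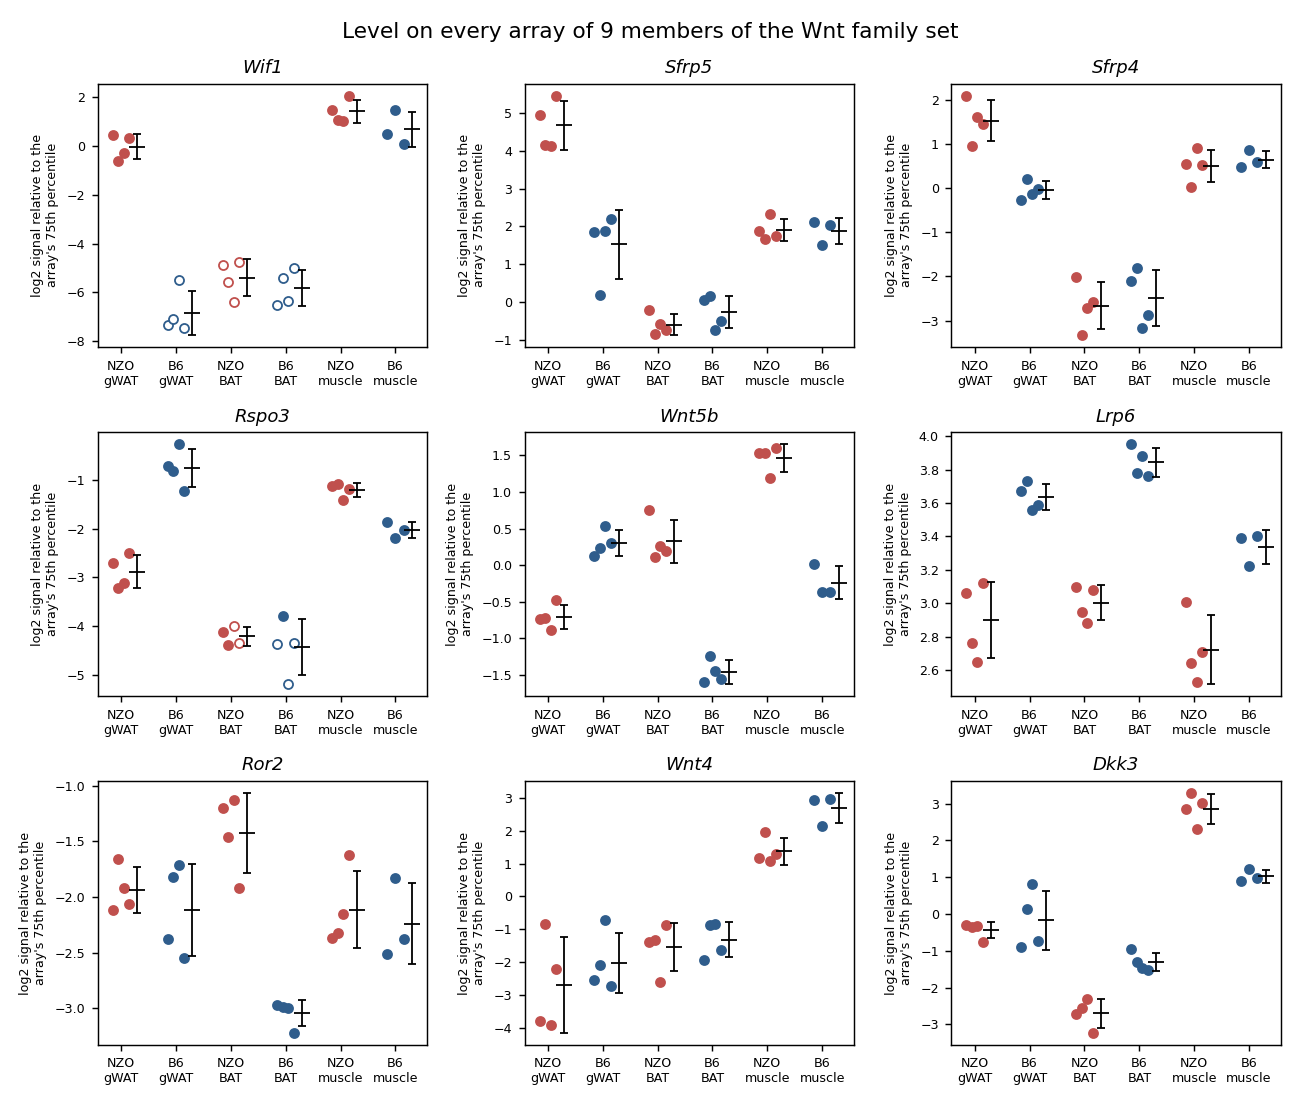
Level (log2 signal minus the array's 75th percentile) of 9 genes on each array, by tissue and strain; points are arrays, open points were not well above background, and bars give the mean with the SD. The strains are apart in all 3 tissues for Wnt5b and Lrp6, and in gWAT for Wif1, Sfrp5, Sfrp4 and Rspo3.

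Fzd9, a Frizzled receptor known from neuromuscular junction and bone, was well above background on 0 of 4 NZO BAT arrays and on all 4 B6 BAT arrays, where it read -1.62, -3.18, -2.67 and -3.14. It was at least 3.45-fold higher in B6, a bound against the lowest signal that counted as well above background. The limma adjusted p of 0.00200 belongs to the fitted difference of -2.46 and not to this bound. Fzd3, a receptor of the planar cell polarity branch, read -2.39, -2.55, -2.69 and -2.21 in NZO BAT and -1.90, -1.68, -1.56 and -1.83 in B6 BAT. NZO was lower on every array (log2 difference -0.72, SE 0.13, limma adjusted p = 0.00766), a call that slide as a fixed block ended (adjusted p = 0.254). In muscle Fzd3 was well above background on the 4 NZO arrays and on 0 of 3 B6 arrays, and was not called (limma adjusted p = 0.0893). It passed there in one fit over 23 arrays (0.70, limma adjusted p = 0.0276), with a replicate block (0.78, 0.0153) and without B6 array 015 (0.91, 0.0469). These values too are fitted against B6 signals not well above background. Fzd4, the receptor for norrin and for several Wnts, read 5.29, 5.43, 5.62 and 4.83 in NZO BAT and 4.61, 4.71, 4.60 and 4.82 in B6 BAT. The lowest NZO array stood just above the highest B6 array, and the log2 difference was 0.61 (SE 0.17, limma adjusted p = 0.0439). Leaving out any 1 array other than NZO 007 gave an adjusted p of 0.0732 to 0.107 for Fzd4.

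In gWAT, Fzd2 read 0.42, 0.13, 0.52 and 0.30 on the NZO arrays and -0.31, -0.09, 0.06 and -0.33 on the B6 arrays. The groups were apart, with a log2 difference of 0.51 (SE 0.13, limma adjusted p = 0.0220), but a second probe gave 0.18 (adjusted p = 0.520). Fzd5 read -2.31, -2.26, -2.57 and -2.29 in NZO and -2.82, -3.35, -2.71 and -2.68 in B6. NZO was higher by 0.53 (SE 0.17, limma adjusted p = 0.0421), and its second probe gave 0.17 (adjusted p = 0.596). Fzd6, a receptor of the planar cell polarity branch, read -2.58, -2.18, -2.04 and -2.43 in NZO and -1.59, -1.92, -0.92 and -1.75 in B6. NZO was lower on every array, by -0.76 (SE 0.23, limma adjusted p = 0.0351). Fzd7, a receptor of muscle stem cells, read -1.24, -1.52, -1.54 and -1.51 in NZO and -0.82, -1.06, -1.26 and -0.81 in B6. These groups overlapped by 1 array of each strain, and the difference was -0.46 (SE 0.14, limma adjusted p = 0.0327).

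Each of these 4 Frizzled calls in gWAT was lost when certain single arrays were left out. The call of Fzd2 was lost without NZO 009 or 003 or B6 010 or 009 (adjusted p from 0.0501 to 0.0679). Fzd5 was lost without NZO 009, 012 or 007 or B6 010, 011 or 015 (0.0517 to 0.0950). For Fzd6 the arrays were NZO 009, 012 and 007 and B6 010 (0.0526 to 0.0926), and for Fzd7 they were NZO 012, 003 and 007 and B6 010, 011 and 009 (0.0642 to 0.0948). In muscle, Fzd2 read 0.74, 0.51, 0.91 and 0.85 on the NZO arrays and -0.20, -0.13 and -0.15 on the B6 arrays. NZO was higher on every array by 1.88-fold (log2 difference 0.91, SE 0.12, limma adjusted p = 0.00465), while its second probe gave 0.34 (adjusted p = 0.472). Fzd1 and Fzd8 gave no strain call, with differences from -0.08 to 0.18 for Fzd1 and from 0.11 to 0.32 for Fzd8. With median centring Fzd8 passed in gWAT (0.60, limma adjusted p = 0.0373). Fzd10 was tested in muscle alone (0.60, limma adjusted p = 0.0844).

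Lrp6, the co-receptor that starts the beta-catenin branch, was lower in NZO in all 3 tissues. In gWAT it read 3.06, 2.76, 2.65 and 3.12 in NZO and 3.67, 3.73, 3.56 and 3.59 in B6. The groups were apart, with a log2 difference of -0.74 (SE 0.13, limma adjusted p = 0.00361). In BAT it read 3.10, 2.95, 2.88 and 3.08 in NZO and 3.95, 3.78, 3.88 and 3.76 in B6, a difference of -0.84 (SE 0.09, limma adjusted p = 0.000562). In muscle it read 3.01, 2.64, 2.53 and 2.71 in NZO and 3.39, 3.22 and 3.40 in B6, a difference of -0.61 (SE 0.14, limma adjusted p = 0.0351). No NZO array reached a B6 array in any of the 3 tissues. A second probe gave -0.60 in gWAT, -0.81 in BAT and -0.37 in muscle, with limma adjusted p of 0.00793, 0.00140 and 0.0982.

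For Lrp6 the differences between tissues of the strain difference were -0.10, 0.13 and 0.23, with limma adjusted p of 0.730, 0.619 and 0.489. Under quantile normalization the value between muscle and gWAT passed (0.41, adjusted p = 0.0393). The gWAT call was lost with median centring (-0.46, adjusted p = 0.122). The muscle call was lost without NZO array 011, 003 or 007 (adjusted p of 0.0731, 0.0799 and 0.0853), without B6 array 010, 015 or 009 (0.141, 0.0607 and 0.129), and with B6 array 011 kept (-0.50, adjusted p = 0.137). Lrp5, the other co-receptor of this branch, differed by -0.17, 0.08 and -0.06 in gWAT, BAT and muscle and was not called.

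Ror2, a receptor tyrosine kinase for Wnt5a, read -1.20, -1.46, -1.13 and -1.92 in NZO BAT and -2.97, -2.99, -3.00 and -3.22 in B6 BAT. NZO was higher on every array by 3.07-fold (log2 difference 1.62, SE 0.18, limma adjusted p = 0.000611). In gWAT and muscle its groups overlapped, with differences of 0.18 and 0.13. The strain difference in BAT exceeded that in gWAT by 1.44 (SE 0.31, limma adjusted p = 0.00266), a difference of 0.46 after normexp background correction (adjusted p = 0.0627). In muscle it was smaller than in BAT, by -1.49 (SE 0.32, limma adjusted p = 0.00717).

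Rspo3, an R-spondin that enhances Wnt responses through the Lgr receptors, had opposite strain differences in gWAT and muscle. In gWAT it read -2.70, -3.21, -3.12 and -2.50 in NZO and -0.73, -0.82, -0.28 and -1.23 in B6. NZO lay lower on every array, by 4.34-fold (log2 difference -2.12, SE 0.23, limma adjusted p = 0.000347). In muscle it read -1.13, -1.09, -1.41 and -1.19 in NZO and -1.86, -2.20 and -2.02 in B6. NZO lay higher on every array there, by 1.76-fold (log2 difference 0.82, SE 0.13, limma adjusted p = 0.00962), a call lost after normexp (0.31, adjusted p = 0.0709) and with slide as a fixed block (adjusted p = 0.0711). The 2 tissues differed in the strain difference by 2.93 (SE 0.35, limma adjusted p = 1.28e-05). Rspo1 differed by -0.76 in gWAT, where the groups overlapped (limma adjusted p = 0.101, and 0.0407 in one fit over 23 arrays). It differed by -0.82 in BAT (0.0631, and 0.0213 without B6 array 009) and by 0.34 in muscle (0.383). Rspo4 was tested in BAT alone, where its NZO arrays read -3.52, -0.70, -4.94 and -2.54, and it was not called (-0.80, limma adjusted p = 0.558).

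Wif1, which binds Wnt ligands outside the cell, read 0.44, -0.62, -0.31 and 0.34 in NZO gWAT and was not well above background on any of the 4 B6 gWAT arrays. It was at least 32.4-fold higher in NZO. The limma adjusted p of 2.60e-05 belongs to the fitted difference of 6.80 against the B6 signals, and not to this bound. The same probe was well above background on the B6 muscle arrays, at 0.50, 1.47 and 0.07, and on the NZO muscle arrays, at 1.48, 1.08, 1.03 and 2.06. These muscle groups overlapped (0.73, limma adjusted p = 0.271), and in BAT Wif1 was not well above background on any array of either strain. The strain difference in muscle differed from that in gWAT (-6.07, SE 0.69, limma adjusted p = 8.35e-06), a fitted value that rests on signals near background in B6 gWAT.

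Sfrp5, an Sfrp inhibitor secreted by adipocytes, read 4.95, 4.16, 4.11 and 5.45 in NZO gWAT and 1.86, 0.18, 1.87 and 2.19 in B6 gWAT. Every NZO array lay above every B6 array, by 8.85-fold (log2 difference 3.15, SE 0.48, limma adjusted p = 0.00184), and B6 array 011 was the lowest. In BAT and muscle the strain differences were -0.34 and 0.02, with overlapping groups. The strain difference was smaller in BAT than in gWAT by -3.48 (SE 0.52, limma adjusted p = 0.000106) and in muscle by -3.13 (SE 0.54, limma adjusted p = 0.000501). Sfrp4 read 2.10, 0.96, 1.62 and 1.45 in NZO gWAT and -0.26, 0.22, -0.13 and -0.02 in B6 gWAT. The groups were apart by 2.99-fold (log2 difference 1.58, SE 0.23, limma adjusted p = 0.00149), and in BAT and muscle the differences were -0.17 and -0.14. Against gWAT the strain difference of Sfrp4 was -1.75 in BAT (SE 0.43, limma adjusted p = 0.00733) and -1.72 in muscle (SE 0.44, limma adjusted p = 0.0108). Sfrp2 read 2.06, 1.24, 1.49 and 1.92 in NZO gWAT and 0.79, 1.13, 0.69 and 0.52 in B6 gWAT, a difference of 0.90 without overlap (SE 0.21, limma adjusted p = 0.0141).

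Sfrp1 read -2.03, -2.30, -2.26 and -2.08 in NZO BAT and -2.94, -3.18, -3.61 and -3.94 in B6 BAT. NZO was higher on every array by 2.38-fold (log2 difference 1.25, SE 0.21, limma adjusted p = 0.00574), and slide as a fixed block took the adjusted p to 0.0505. In gWAT it read -0.94, -1.88, -2.26 and -0.79 in NZO and -0.74, -0.43, 0.15 and -0.58 in B6. The NZO arrays were all lower, but the difference of -1.07 was not called (SE 0.36, limma adjusted p = 0.0519) and passed without NZO array 007 (-1.30, adjusted p = 0.0321) and in one fit over 23 arrays (0.0102). The strain difference of Sfrp1 was 2.32 larger in BAT than in gWAT (SE 0.44, limma adjusted p = 0.00109) and 1.78 larger in muscle than in gWAT (SE 0.46, limma adjusted p = 0.0107). The second was lost with slide as a fixed block (1.45, adjusted p = 0.123) and with a replicate block (1.60, 0.0645).

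Dkk3, a Dkk family member whose action on Lrp co-receptors is unsettled, had opposite strain differences in muscle and BAT. In muscle it read 2.86, 3.28, 2.31 and 3.01 in NZO and 0.89, 1.22 and 0.97 in B6. NZO was higher on every array by 3.57-fold (log2 difference 1.84, SE 0.23, limma adjusted p = 0.00360). In BAT it read -2.71, -2.56, -2.30 and -3.23 in NZO and -0.96, -1.30, -1.47 and -1.51 in B6. NZO was lower on every array by 2.62-fold (log2 difference -1.39, SE 0.21, limma adjusted p = 0.00337), and the difference between these tissues was 3.23 (SE 0.44, limma adjusted p = 0.000114). Dkk2, an inhibitor that binds Lrp6, was tested in gWAT (0.05) and muscle (0.79, limma adjusted p = 0.136) and not called. Dkk4 was tested in muscle alone (-0.63, limma adjusted p = 0.232); it entered the reported genes through the 3 arrays of B6 muscle.

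In the tests of whether the strain difference itself differed between tissues, 10 of 32 members passed between BAT and gWAT, a share of 31.2% against 19.4% of all genes (limma; 9.27% larger and 10.1% smaller). Between muscle and gWAT 10 of 35 passed, 28.6% against 20.7% (9.01% larger and 11.7% smaller), and between muscle and BAT 5 of 35, 14.3% against 6.28% (2.96% larger and 3.32% smaller). These comparisons share arrays, so their counts are not independent. The split of the first was 6 larger and 4 smaller, against 4 and 5 with median centring, and that of the second 6 and 4, against 8 and 3 with quantile normalization. Beside the genes above, the calls between BAT and gWAT held Rspo3 (2.33, SE 0.33, adjusted p = 7.98e-05), Fzd9 (-3.35, SE 0.50, 0.000107, not well above background in NZO BAT), Wif1 (-6.38, SE 0.66, 2.35e-06, not well above background in BAT) and Fzd4 (0.68, SE 0.22, 0.0383). Rspo3 was well above background on only 2 of 4 NZO and 1 of 4 B6 BAT arrays. The Fzd4 call was lost on leaving out 11 of 16 arrays in turn. Between muscle and gWAT they held Dkk3 (2.09, SE 0.44, limma adjusted p = 0.00263) and Fzd6 (1.34, SE 0.31, 0.00530), and Fzd3 (0.96, SE 0.29, 0.0245), which was lost without B6 muscle array 010 (0.0897). This value for Fzd3 is fitted against signals not well above background on the B6 muscle arrays, and it was 0.11 with normexp (adjusted p = 0.717), 0.21 with the deposited series values (0.501), 0.39 with B6 array 011 kept (0.645), 0.64 with median centring (0.212) and 0.81 with slide as a fixed block (0.115). Sfrp2 also passed there (-1.22, SE 0.40, limma adjusted p = 0.0369) and was lost on leaving out 10 of 15 arrays. Between muscle and BAT the remaining calls were Fzd3 (1.42, SE 0.29, limma adjusted p = 0.00490), Fzd9 (2.19, SE 0.52, 0.0153) and Wnt11 (0.82, SE 0.17, 0.00614). With normexp all 3 calls were lost, at 0.23 for Fzd3 (adjusted p = 0.552), 0.31 for Fzd9 (0.381) and 0.41 for Wnt11 (0.0581), as they were with slide as a fixed block (0.96, 2.02 and 0.80, adjusted p of 0.236, 0.233 and 0.144). Fzd3 was well above background on 0 of 3 B6 muscle arrays and Fzd9 on 0 of 4 NZO BAT arrays. Of the 5 calls between muscle and BAT, 1 held after normexp background correction and 1 with slide as a fixed block, Dkk3 in both.

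Muscle fibre markers moved with strain in BAT. All 8 were lower in NZO BAT, with a median difference of -7.00, and their summed level was 0.43 to 2.68 in NZO BAT and 7.45 to 9.47 in B6 BAT. Of the 8, 4 to 6 were well above background on an NZO BAT array and 8 on each B6 BAT array. Of the members lower in NZO BAT, Fzd9 exceeded its NZO BAT level in NZO muscle by at least 247-fold, Dkk3 by 5.56 and Wnt11 by 0.97 on the log2 scale. Fzd3 and Lrp6 were lower in NZO muscle than in NZO BAT, by -1.47 and -0.28. Wnt9a and Wnt4 exceeded their NZO BAT levels in NZO muscle by 3.51 and 2.93. They differed between the strains in BAT by 0.08 and -0.24 (limma adjusted p of 0.806 and 0.749). The muscle levels above are of NZO, while the fibre markers were high in B6 BAT. In B6 and NZO muscle the means were 1.03 and 2.86 for Dkk3, 3.78 and 3.51 for Fzd9, and -0.56 and -0.49 for Wnt11. The means were 1.93 and 1.79 for Wnt9a and 2.68 and 1.38 for Wnt4. Fzd3 was well above background on 0 of 3 B6 muscle arrays. Lrp6 read 3.22 to 3.40 on the B6 muscle arrays, above NZO BAT (2.88 to 3.10) and below B6 BAT (3.76 to 3.95). Of 7 mural and smooth muscle markers 3 were lower in NZO BAT, with a median difference of -0.59, and the summed level of 7 mesothelium markers was -2.52 to -2.39 in NZO BAT and -1.99 to -1.35 in B6 BAT, with at most 2 of them well above background. The part of RNA of these cell types in the BAT results was not tested further.

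**Figure D3:**
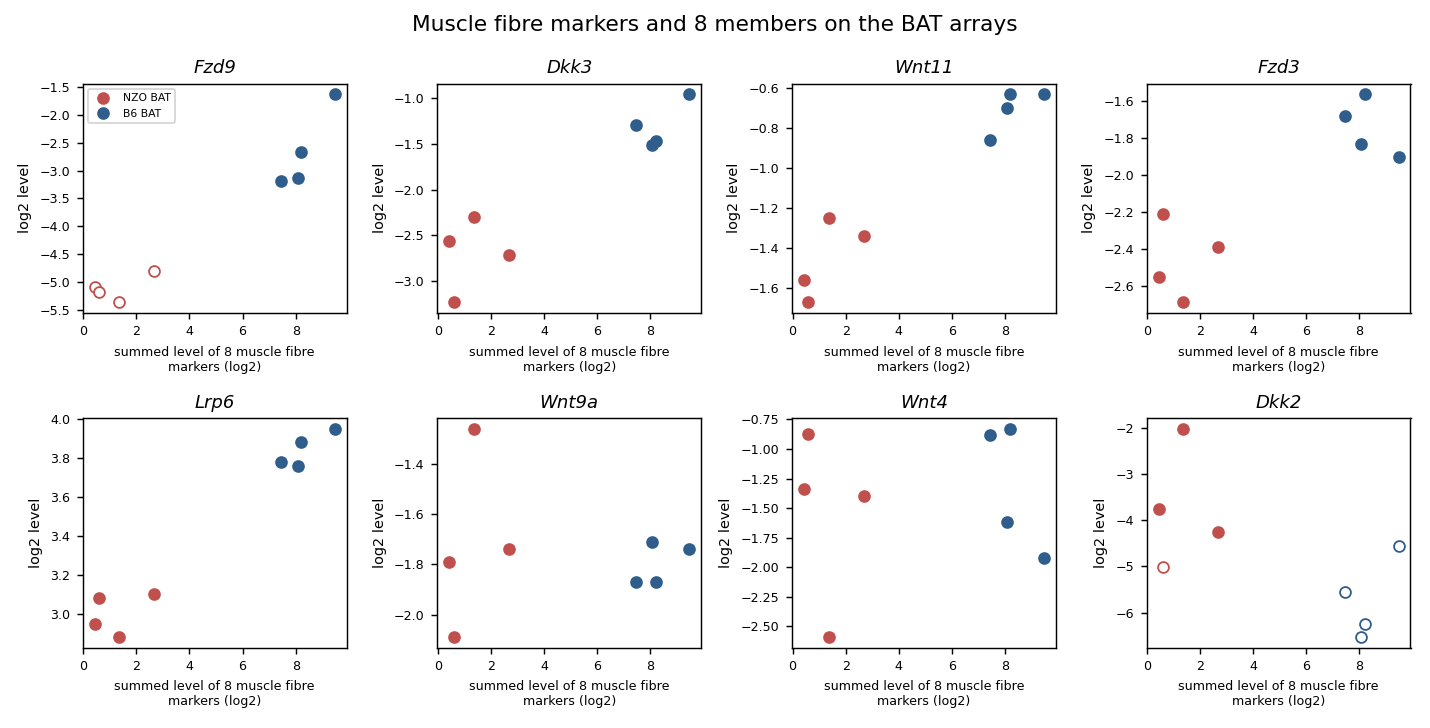
Level of 8 genes on each BAT array (vertical axis, log2 signal minus the 75th percentile) against the summed level of 8 muscle fibre markers on that array (horizontal axis, log2); colours give the strain and open points were not well above background. The NZO arrays lie at 0.43 to 2.68 and the B6 arrays at 7.45 to 9.47 on the horizontal axis, so strain and marker level cannot be separated by eye.

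Other cell type markers moved with strain in gWAT. All 8 macrophage markers were higher in NZO gWAT, with a median difference of 1.75, and their summed level was 7.51 to 7.78 in NZO and 6.01 to 6.38 in B6. Of 7 brown adipocyte markers 5 were higher, with a median of 3.20 and summed levels of 6.09 to 6.94 in NZO and 3.34 to 4.42 in B6. Muscle fibre markers gave 2 higher of 6 tested, although the median difference of those tested was -0.60. Their summed levels overlapped, at 2.69 to 3.54 in NZO and 1.61 to 4.40 in B6. Of 7 mesothelium markers 1 was lower, with summed levels of 3.59 to 3.82 in NZO and 3.61 to 4.99 in B6. Of 6 lymphocyte markers tested 2 were higher, with summed levels of 2.20 to 3.67 in NZO and 1.42 to 1.99 in B6, and of 5 Schwann cell markers tested 1 was higher and 2 lower. Of 8 mature adipocyte markers 2 were higher and 2 lower, and of 8 fibroblast and progenitor markers 2 were higher and 1 lower. The 7 endothelium markers and the 7 mural and smooth muscle markers gave 1 lower each. The 1 epididymis marker tested was lower. The part of these cell types in the gWAT results was not tested. In muscle, 1 of 8 fibre markers was higher in NZO, but the median difference of the 8 was -0.21. Their summed level was 12.95 to 13.11 in NZO and 13.14 to 13.32 in B6. Of 8 macrophage markers 1 was higher in NZO muscle. Mature adipocyte, endothelium, lymphocyte and epididymis markers gave 1 higher each there. Mural and smooth muscle markers and Schwann cell markers gave 1 lower each.

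Differences between tissues were common among the members, as among all genes. In NZO, 21 of 31 members passed between BAT and gWAT where 67.3% of all genes passed (40.4% higher and 26.8% lower in BAT). Between muscle and gWAT 26 of 33 passed, with 71.0% of all genes (37.2% higher and 33.7% lower in muscle), and between muscle and BAT 28 of 33, with 64.4% (27.8% and 36.7%). In B6, 24 of 30 members passed between BAT and gWAT, 8 higher and 16 lower in BAT, with 60.5% of all genes (35.4% and 25.1%). Between muscle and gWAT 25 of 32 passed, 14 higher and 11 lower in muscle, with 70.0% of all genes (36.2% and 33.8%), and between muscle and BAT 25 of 33, 17 higher and 8 lower, with 62.7% (28.9% and 33.8%). Between BAT and gWAT, 16 of the 29 members tested in both strains were called in both in the same direction (55.2%, against 47.9% of all genes). The counts were 18 of 30 between muscle and gWAT (against 56.8% of all genes) and 21 of 31 between muscle and BAT (67.7% against 53.9%). Deviations of same-numbered arrays correlated at 0.17 to 0.35 between gWAT and BAT in NZO, and at 0.11 to 0.38 between gWAT and muscle in B6, with 3 pairs each. In the other pairs of tissues same-numbered arrays gave -0.28 to 0.43. Arrays of different numbers gave -0.54 to 0.48 in NZO and -0.44 to 0.24 in B6 over all pairs of tissues. Between gWAT and BAT in NZO they gave -0.40 to 0.14, below every same-numbered pair there. Between gWAT and muscle in B6 they gave -0.33 to 0.20, which overlapped the same-numbered pairs. Pairing by number is thus neither shown nor excluded, and the main tissue tests did not use it. With a replicate block, 22 members passed between BAT and gWAT in NZO, with Wnt4 (1.62, limma adjusted p = 0.00820) and Wnt9a (-0.44, 0.0334) gained and Fzd4 lost (-0.45, 0.0666), and 26 between muscle and gWAT in B6, with Sfrp4 gained (0.84, 0.00975). In NZO the split depended on the scaling: between BAT and gWAT, 8 were higher and 13 lower, against 6 and 17 with quantile normalization and 3 and 18 with median centring, which moved the median of all genes from 0.25 to -0.25. Between muscle and gWAT in NZO it was 17 and 9, against 15 and 13 with median centring. The differences named next exceeded 2 on the log2 scale in both strains, except those of Rspo4 and Wnt5b.

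Muscle stood out by Wnt9a, Wnt4, Fzd9 and Fzd10 and by the inhibitor Dkk2. Wnt9a was higher in muscle than in BAT by 3.51 in NZO and 3.73 in B6, and than in gWAT by 3.16 and 2.52. Wnt4 was higher in muscle than in BAT by 2.93 and 3.99 and than in gWAT by 4.06 and 4.70. Fzd9 exceeded its gWAT level in muscle by 7.30 and 8.46, with 2 of 4 B6 gWAT arrays well above background, and its BAT level by 6.43 in B6. Fzd10 was at least 7.25-fold higher in muscle than in BAT in NZO and at least 4.16-fold in B6, and its muscle level exceeded that in gWAT by 4.28 and 2.92, with 1 NZO and 2 B6 gWAT arrays well above background. Dkk2 was higher in muscle than in BAT by 4.18 in NZO and at least 15.4-fold in B6. Against gWAT the muscle excess of Dkk2 was 3.42 and 2.68, and Fzd7 was higher by 2.39 and 2.10. Wif1 was at least 57.7-fold higher in muscle than in BAT in NZO and at least 31.9-fold in B6, and the muscle excess over BAT was 3.16 and 3.13 for Sfrp4 and 2.49 and 2.14 for Sfrp5. Dkk3 exceeded BAT in muscle by 5.56 in NZO and 2.34 in B6, and Rspo3 by 2.39 in B6, with 1 B6 BAT array well above background. In NZO the mean level of Rspo3 was -1.21 in muscle and -4.21 in BAT (limma adjusted p = 9.21e-10), with 2 NZO BAT arrays well above background. In the opposite direction Fzd3 was lower in muscle than in gWAT, by -3.17 in NZO and at least 13.2-fold in B6.

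Rspo1, an R-spondin, marked gWAT: its level in gWAT was 1.92 to 2.44 in NZO and 2.40 to 3.73 in B6. It was lower in BAT than in gWAT by -5.27 in NZO and -5.21 in B6, and lower in muscle by -4.14 and -5.24. Sfrp2 was lower in BAT than in gWAT by -3.22 and -2.80, and Sfrp4 by -4.19 and -2.44. Wnt8a was higher in BAT than in gWAT by 3.37 and 3.56, with 1 of 4 gWAT arrays of each strain well above background. Rspo4 in B6 was at least 7.60-fold higher in BAT than in gWAT and at least 4.29-fold higher than in muscle; in NZO BAT 3 of 4 arrays were well above background. Wnt5b ranked differently in the strains: NZO BAT exceeded NZO gWAT by 1.04 (limma adjusted p = 4.06e-06), whereas B6 BAT lay below B6 gWAT by -1.76 (limma adjusted p = 3.25e-09).

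**Figure D4:**
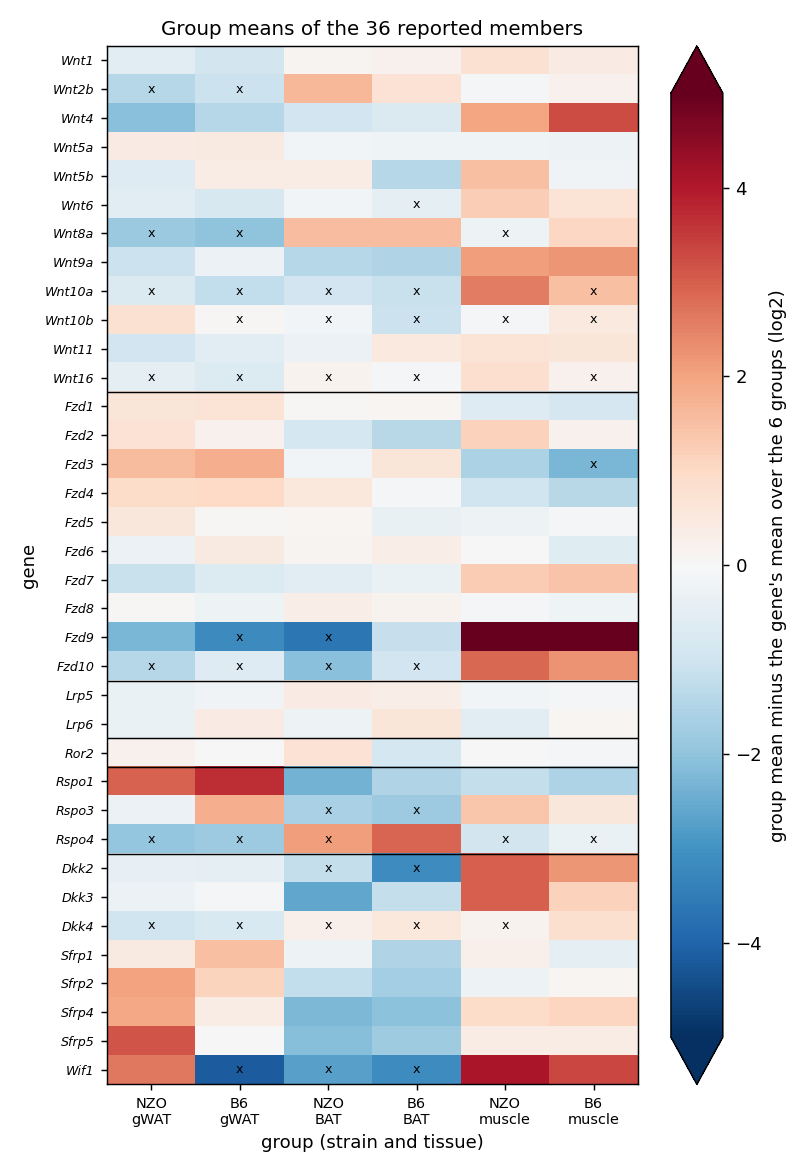
Mean level of each of the 36 genes in the 6 groups, shown as the difference from that gene's mean over the groups (log2, colour limited to 5 in either direction); a cross marks a group in which the gene was not well above background on every array. Fzd9, Wnt4, Wnt9a, Fzd10 and Dkk2 are high in the muscle groups, Rspo1 in the gWAT groups, and Wif1 is high in NZO gWAT and in both muscle groups.

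Among the other pathway genes, those for secretion and extracellular control gave 3 higher and 2 lower of 10 tested in gWAT, 0 and 1 of 10 in BAT and 1 and 0 of 11 in muscle by limma. The shares of all genes called, in either direction, were 31.6%, 15.6% and 10.7% in these tissues, and each list's counts are read against them. Cthrc1, a secreted Wnt cofactor, was higher in NZO gWAT by 2.17 (limma adjusted p = 0.00585), and Apcdd1, a membrane inhibitor, was lower by -1.52 (limma adjusted p = 0.00448). Co-receptors and regulators of receptor turnover gave 0 calls of 9 in gWAT by limma (0 also at an unadjusted p under 0.05), 1 higher and 1 lower of 8 in BAT, and 2 of each of 10 in muscle. Lgr6, a receptor for R-spondins, was lower in NZO BAT by -1.71 (limma adjusted p = 0.00710). Of 28 core genes of the beta-catenin branch, 27 were tested in each tissue, with 2 higher and 0 lower in gWAT, 2 and 0 in BAT and 1 and 1 in muscle. Ctnnbip1, which keeps beta-catenin from TCF factors, was among the higher ones in all 3 tissues, by 0.77, 0.80 and 0.63; it was picked out after its values were seen.

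Known target genes of the branch gave 3 higher and 3 lower of 15 in NZO gWAT, 1 and 0 of 13 in BAT and 1 and 0 of 14 in muscle. In gWAT, Wisp2, a secreted matricellular protein, was higher by 2.66 (limma adjusted p = 3.64e-05) and Cd44, a hyaluronan receptor also carried by macrophages, by 1.69 (2.23e-05). Axin2, a negative regulator often used as a readout of the branch, was lower in NZO gWAT by -0.99 (limma adjusted p = 0.00668), and was singled out here after its value was seen. Myc, a growth regulator, was higher in NZO BAT by 1.46 (limma adjusted p = 0.0190). Genes of the planar cell polarity and calcium branches gave 1 higher and 2 lower of 21 in gWAT, 0 and 0 of 19 in BAT (1 at an unadjusted p under 0.05) and 0 and 1 of 20 in muscle, by limma. Camk2b, a calcium-dependent kinase, was lower in NZO gWAT by -2.18 (limma adjusted p = 0.0171). The medians of the 5 lists lay between -0.18 and 0.36 over the 3 tissues, against -0.03 to 0.00 for all genes.

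The 10 genes that did not reach the background rule were Dkk1, Ror1, Rspo2, Wnt2, Wnt3, Wnt3a, Wnt7a, Wnt7b, Wnt8b and Wnt9b. Nearest to it was Wnt9b, well above background on 13 of 23 arrays. Wnt2 was well above background on 2 of 4 NZO gWAT arrays, at -4.90 and -4.56, and on no array of the other groups. Dkk1, Ror1, Rspo2, Wnt3 and Wnt3a were well above background on 0 of 23 arrays, so at this signal a level below the background limit could not be seen. Dkk4, Wnt16, Wnt10b, Wnt10a and Rspo4 met the rule through 1 group each, and were well above background on 15, 16, 12, 7 and 7 of the 23 arrays.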

How the data were processed

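RNA of 24 tissue samples was labelled and hybridised singly to 1-colour arrays with 59305 spots. Per the file headers, the deposited intensity values were extracted with Agilent Feature Extraction 11.0.1.1, while the submitters' processing notes name version 9.1; the processed signal is background-subtracted and detrended within an array and not scaled between arrays. Flags for spots well above background were used as deposited by the authors. The deposited series table holds median spot intensity on a linear scale (column medians 43 to 70), in the scanner values' direction, with no scaling between arrays. Probe positions come from the file headers and annotation columns (mm9), and no NZO genome was used to check them.

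Signals were taken as log2 after division by each array's 75th percentile, spots of a probe were averaged, and limma 3.58.1 in R 4.3.3 (lmFit, eBayes, two-sided, Benjamini-Hochberg over all genes tested, called under 0.05) was run on genes that every array of 1 or both compared groups showed well above background. Strain comparisons were fitted per tissue, and tissue comparisons and differences of strain differences over 23 arrays. A gene below background on every array of one group is given as "at least N-fold", the mean of the brighter group over the mean of a per-array limit in the dimmer one (the dimmest signal still well above background there, or the gene's signal if that was larger). Genes were named by rule: each member at least once, called members with every array, tissue differences of at least 2 in both strains, and pathway genes called with a difference of at least 1, up to 4 for each list and tissue; other pathway genes named are marked. The members, pathway lists and marker lists were chosen with earlier results of these data known. On simulated data, changes of 1 and 2 on the log2 scale were recovered at 44% and 85% in gWAT (21527 genes), 62% and 95% in BAT (20698) and 41% and 93% in muscle (20787). Each simulation changed 100 genes by each size, with noise drawn independently for each gene. In the data 6798, 3239 and 2218 genes were called in these tissues. The adjusted p depends on that number, so the recovery in the data may differ. The number of arrays limits the precision; the median SE was 0.164, 0.148 and 0.161. The labels do not say that title numbers pair arrays of different tissues. Correlations of deviations between same-numbered arrays of a strain ran from -0.28 to 0.35 in NZO (median 0.12, and 0.01 for other numbers) and from -0.15 to 0.43 in B6 (0.10 and -0.05); every pair exceeded 0.1 between gWAT and BAT in NZO and between gWAT and muscle in B6, and the blocked values of these comparisons are given beside them. Alternatives were normexp (offset 50), quantile normalization, median centring, no filter, the mean of all probes, the deposited series values, slide as a random block (duplicateCorrelation, on 1 gene in 10) or fixed block, a replicate block, one fit over 23 arrays, B6 muscle array 011 kept, and each array left out.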

Additional observations from a re-analysis of the deposited data

Results flagged for a closer look

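Single arrays stood far from the other 3 of their group in 10 of 140 groups of 4 arrays examined (by the gap to the nearest array as a share of the group's range, at Dixon's critical value), where chance gives about 1 in 20. In NZO gWAT these were Dkk3 on array 007 (-0.75), Fzd5 on 003 (-2.57), Fzd7 on 009 (-1.24) and Rspo1 on 012 (1.92). In NZO BAT, array 007 stood apart for Lrp5 (2.39), Sfrp2 (-1.14) and Wnt5a (0.43). The others were Rspo1 on NZO muscle array 003 (-1.25), Ror2 on B6 BAT array 009 (-3.22) and Sfrp5 on B6 gWAT array 011 (0.18).

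The strain difference differed between tissues by the limma test of that difference for several genes. Between BAT and gWAT (BAT minus gWAT) the values were Fzd4 0.68, Fzd9 -3.35, Ror2 1.44, Rspo3 2.33, Sfrp1 2.32, Sfrp4 -1.75, Sfrp5 -3.48, Wif1 -6.38, Wnt5b 2.80 and Wnt9a 0.87. Between muscle and gWAT they were Dkk3 2.09, Fzd3 0.96, Fzd6 1.34, Rspo3 2.93, Sfrp1 1.78, Sfrp2 -1.22, Sfrp4 -1.72, Sfrp5 -3.13, Wif1 -6.07 and Wnt5b 2.71. Between muscle and BAT they were Dkk3 3.23, Fzd3 1.42, Fzd9 2.19, Ror2 -1.49 and Wnt11 0.82.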

How the results depend on the processing

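No called strain difference, and no called difference of strain differences, changed sign under an alternative. Of the tissue differences, 4 called ones did: BAT minus gWAT for Rspo3 in NZO (-1.32, and 0.07 with normexp), Fzd9 in NZO (-1.32, 0.20 with normexp and 0.10 with the deposited series values) and Dkk2 in B6 (-2.67, and 0.02 with normexp), and muscle minus gWAT for Fzd2 in NZO (0.41, and -0.06 with median centring). Some uncalled tissue differences passed in opposite directions under different alternatives. BAT minus gWAT for Wnt10b in NZO was 0.33 with normexp and -1.44 with quantile normalization. For Fzd5 in B6 it was 0.24 and -0.67 with the same alternatives. Muscle minus gWAT for Fzd5 in B6 was 0.31 with normexp and -1.34 with the mean of all probes. The count of members whose strain difference differed between muscle and BAT moved from 5 to 1 with normexp, to 2 with the deposited series values and to 1 with slide as a fixed block; the cause was not tested. Leaving out each array in turn gave 8 to 11 calls between strains in gWAT, 9 to 10 in BAT and 4 to 6 in muscle. For differences of strain differences it gave 9 to 11 (BAT and gWAT), 8 to 11 (muscle and gWAT) and 5 in each case (muscle and BAT). Between tissues it gave 19 to 25 (BAT and gWAT), 25 to 27 (muscle and gWAT) and 27 to 29 (muscle and BAT) in NZO, and 24 to 26, 24 to 25 and 22 to 27 in B6. A replicate block on the title number, which the labels do not say pairs arrays, gave 8, 8 and 5 strain calls in gWAT, BAT and muscle. For these strain calls the block joined equal numbers of both strains, which cannot be the same mouse. For the other comparisons it joined arrays of a strain with the same number. There it gave 9, 9 and 5 calls for the differences of strain differences, 22, 25 and 28 between tissues in NZO and 24, 26 and 24 in B6. The strain call of Sfrp2 in gWAT was lost only under the block that joined both strains (limma adjusted p = 0.0879). The strain calls that held under every alternative were Wif1, Rspo3, Sfrp4, Wnt5b and Sfrp5 in gWAT, Dkk3, Wnt11, Lrp6, Fzd9, Wnt5b and Ror2 in BAT, and Dkk3 and Wnt5b in muscle. Of these, Wif1 in gWAT and Fzd9 in BAT passed the background filter through the brighter strain alone. No alternative adjusted for the muscle fibre markers, whose summed level was 0.43 to 2.68 in NZO BAT and 7.45 to 9.47 in B6 BAT. Over single members and alternatives of the 3 strain comparisons, 1466 values stayed on their side of the threshold with their direction, 88 lost a call, 17 gained one and 66 uncalled values changed sign. Signals not well above background limit Wif1, Fzd9, Fzd10, Rspo4, Dkk2 and Fzd3 to bounds in some groups, and the differences of Wnt8a between BAT and gWAT rest on 1 gWAT array well above background in each strain. The BAT levels of Rspo3 rest on 2 NZO arrays and 1 B6 array well above background.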
